A study of Mus musculus with 24 samples.

Results

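The endothelial cells of mouse hindlimb muscle were compared 1 day after injury with the same population from uninjured muscle. The members were the 6 libraries of cells sorted as CD31+, 3 from each condition, of 24 libraries in the series, and all genes that passed a filter on low counts were compared. All libraries came from C57BL/6 mice aged 8 weeks. Muscle was either uninjured or taken on day 1 after cardiotoxin, a toxin of snake venom that lyses muscle fibers, had been injected. The gate is given as CD31+ alone, with no second marker stated for this population, so CD31+ leukocytes or platelets are not removed by anything the labels describe. The other 18 libraries, from CD45+ hematopoietic cells, mesenchymal stromal cells (MSC) and muscle stem cells (MuSC) of the same 2 conditions, entered the same model and are used below only where a response is set against theirs. The 3 libraries of a group are described as biological replicates. The labels do not tie equal replicate numbers to 1 mouse, and the p-values measure only how far these libraries spread.

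CD31 (the product of Pecam1) is an adhesion molecule at the junctions between endothelial cells, the cells that line every blood vessel. In skeletal muscle most of them form capillaries, which pass oxygen, fatty acids and glucose to the fibers. After injury endothelial cells bind passing leukocytes, seal leaks by coagulation, dissolve clots and matrix by proteolysis, and later sprout and divide under the control of vascular endothelial growth factor (VEGF) and Notch to rebuild the network. Cells that start to grow often raise the transcription factor MYC and the machinery that makes ribosomes, nucleotides and amino acids. Interferon, made by many cells, keeps a separate set of antiviral and antigen presentation genes on through response elements in their promoters.

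Total counts were 4650542, 3245117 and 3320520 in the uninjured and 6423420, 5160455 and 5862482 in the injured CD31+ libraries, so the injured libraries were the deeper ones. Levels are given in CPM, counts scaled to the library size, where 3 counts equal 0.461 to 0.884 CPM in 1 CD31+ library. Within a condition the libraries correlated across genes with Pearson's r of 0.953 to 0.966, and between conditions with 0.921 to 0.937 (log2 CPM). Of 16263 genes tested, 2298 (14.1%) rose and 1512 (9.3%) fell at an adjusted p below 0.05, and 1049 and 830 of these changed over 2-fold (6.45% and 5.1% of genes tested). The 3 injured libraries all lay above the 3 uninjured ones for 19.6% of genes tested and all below for 17.6%. The balance depended on the scaling. With relative log expression (RLE) in place of trimmed mean of M values (TMM) scaling, the median log2 fold change over every gene tested was -0.14 and not -0.04, with 1926 rises and 2058 falls (48.3% of calls rising against 60.3%). "Rose" and "fell" are written only of genes that passed, values are mean ± SD over 3 libraries, and SE belongs to a log2 fold change. The shares of 14.1% rising and 9.3% falling are the background for every count of list members below.

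Injured replicate 1 stood apart in leukocyte transcripts. A transcript was marked when its level in 1 library was at least 5 CPM and at least 4 times the highest of the other 5 CD31+ libraries. Injured replicate 1 had 60 such genes, against 11, 2 and 3 in uninjured replicates 1 to 3 and 1 and 0 in injured replicates 2 and 3. Of the 60, 51 (85%) were at least 10 times higher in injured CD45+ cells than in injured replicate 1. Of all genes tested, 8.64% were at least 10 times higher in injured CD45+ cells than in the mean of the 3 injured CD31+ libraries. The injury test was passed by 15 of the 60, all of them as rises. Over all genes tested the shares were 23.4% passing in either direction and 14.1% rising. Results that rest on this library are given with and without it.

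The sort marker and most genes that define endothelium stayed at high levels. Pecam1, the gene of the sort marker (chromosome 11, 106654217 to 106750628, GRCm38), was at 2222, 1930.0 and 2003 CPM in the uninjured and 1891, 2081 and 1865 CPM in the injured libraries, and the groups overlapped (-0.08 ± 0.31 SE on the log2 scale, adjusted p = 0.896). Cdh5 encodes VE-cadherin, the main adhesion molecule of endothelial junctions, and was at 751, 750.2 and 793 CPM in the uninjured and 629, 669.5 and 573 CPM in the injured libraries (-0.29 ± 0.23 SE on the log2 scale, adjusted p = 0.407). Its groups did not overlap, but the difference did not pass. Kdr encodes the principal VEGF receptor (chromosome 5, 75932827 to 75978458) and was at 904, 752 and 845 CPM in the uninjured and 373, 392 and 369 CPM in the injured libraries. Every injured library was below every uninjured one, and Kdr fell (-1.14 ± 0.23 SE on the log2 scale, adjusted p = 0.000976). Summed over 24 endothelial identity genes, the level was 25533 to 28411 CPM in uninjured and 21128 to 23383 CPM in injured libraries, against at most 598 CPM on average in any group of another population. The labelled cell type thus had its markers in every library.

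Of those 24 identity genes 2 rose and 6 fell, with a median log2 fold change of -0.30 against -0.04 for all genes. Adgrl4, an adhesion receptor of vessels, fell from 678 ± 48.03 to 366 ± 30.1 CPM (-0.89 ± 0.15 SE on the log2 scale, adjusted p = 0.000134), and Ushbp1 fell from 1192 ± 86.5 to 581 ± 45.1 CPM. Clec14a, a lectin of the endothelial surface, fell by 0.72 on the log2 scale. The risers were Nos3, the endothelial nitric oxide synthase (from 181 ± 14.7 to 304 ± 48.9 CPM), and Sox17, a transcription factor of arteries (from 365 ± 12.6 to 606 ± 75.5 CPM), whose call was lost under 7 of 14 alternative settings. The number of fallers depended on the fit: 13 fell when only the 6 CD31+ libraries were fitted, and 3 to 13 over all alternatives. Among 29 tested endothelial transcription factors 2 rose and 7 fell (4 to 12 fell over the alternatives). Hhex fell from 129.8 ± 8.41 to 45.4 ± 2.73 CPM, Tcf15, a factor of capillaries that handle fatty acids, from 67.6 ± 14.98 to 23.8 ± 6.21 CPM, and Mef2c from 214 ± 6.05 to 125 ± 11.6 CPM. Epas1, which encodes the endothelial hypoxia-inducible factor HIF-2α, fell from 1605 ± 211 to 945 ± 54.5 CPM. Id1, a target of BMP signalling, rose from 186 ± 37.7 to 502 ± 88.1 CPM.

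**Figure D1:**
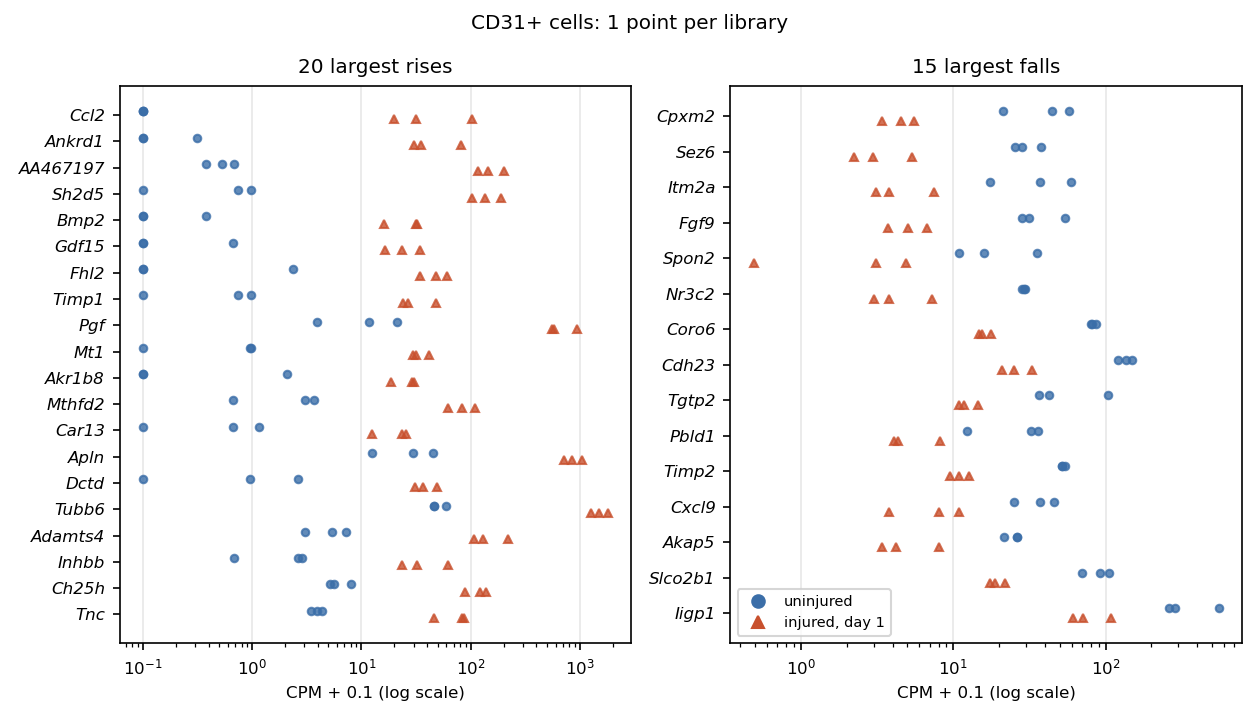
Level of the 20 genes with the largest rises and the 15 with the largest falls in CD31+ cells, in CPM plus 0.1 on a log axis, with 1 point for each of 3 uninjured (circles) and 3 injured (triangles) libraries. The 2 conditions do not overlap for any gene shown, as the rule that chose them requires, and many of the risers sit at or near 0 counts before injury.

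Several of the 20 genes with the largest rises were nearly silent before injury. Ccl2 encodes the chemokine that draws monocytes (chromosome 11, 82035571 to 82037453). It had 0 counts in all 3 uninjured libraries and was at 19.7, 102 and 31.4 CPM in the injured ones, at least 184.5-fold higher against the 3-count limit over the group. The injured libraries differed among themselves by several fold, with replicate 2 the highest, and the call was lost with limma voom (adjusted p = 0.0856, lowest over the alternatives 3.03e-11). Bmp2, a growth factor of the BMP family (chromosome 2, 133552159 to 133562885), had 1 count before injury and was at 32.3, 31.6 and 15.9 CPM after it (ratio of pooled counts 306.6, 95% counting interval 54.8 to 12136). Ankrd1, a mechanosensitive target of the YAP coactivator, had 1 count before and 30.3, 80.7 and 35.4 CPM after injury (ratio 541.9, interval 97.0 to 21430). Gdf15, a stress-induced cytokine, had 2 counts and then 16.3, 34.3 and 23.7 CPM (ratio 140.0, interval 38.5 to 1160). These intervals cover counting error only.

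Pgf, Apln and Tubb6 rose from a higher level. Pgf, placental growth factor (chromosome 12, 85166635 to 85177790), was at 21.04, 11.6 and 3.83 CPM in the uninjured and 556, 938 and 581 CPM in the injured libraries (5.78 ± 0.41 SE on the log2 scale, adjusted p = 3.12e-09). Apln, which encodes the peptide apelin of sprouting tip cells (chromosome X, 48025146 to 48034853), was at 12.3, 45.5 and 29.8 CPM in the uninjured and 852, 1051 and 715 CPM in the injured libraries (4.92 ± 0.53 SE on the log2 scale, adjusted p = 2.03e-06). Tubb6, a β-tubulin gene (chromosome 18, 67390717 to 67402749), was at 46.1, 46.3 and 59.8 CPM in the uninjured and 1506, 1809.6 and 1272 CPM in the injured libraries (4.91 ± 0.21 SE on the log2 scale, adjusted p = 2.13e-13). All 3 rose more than 20-fold in mean CPM, and no injured library came near an uninjured one. The folate enzyme gene Mthfd2 rose from 2.38 ± 1.603 to 85.3 ± 24.1 CPM, the metallothionein gene Mt1 from 0.578 ± 0.501 to 34.1 ± 6.36 CPM, the protease inhibitor gene Timp1 from 0.507 ± 0.456 to 32.9 ± 13.5 CPM and the protease gene Adamts4 from 5.11 ± 2.06 to 151 ± 58.2 CPM. Ch25h, which makes 25-hydroxycholesterol, rose from 6.19 ± 1.55 to 116 ± 25.3 CPM, Inhbb, an activin subunit, from 1.96 ± 1.196 to 39.4 ± 20.5 CPM, and the matrix protein gene Tnc from 3.82 ± 0.431 to 71.8 ± 22.6 CPM. Fhl2, a LIM-domain cofactor, rose from 0.753 ± 1.305 to 47.6 ± 13.1 CPM, AA467197 from 0.432 ± 0.154 to 155 ± 44.9 CPM, Sh2d5, an adaptor protein gene, from 0.507 ± 0.456 to 143 ± 44.98 CPM, Dctd from 1.13 ± 1.299 to 38.9 ± 9.39 CPM, Car13, a carbonic anhydrase gene, from 0.543 ± 0.532 to 20.6 ± 7.17 CPM, and the reductase gene Akr1b8 from 0.659 ± 1.14 to 25.9 ± 6.26 CPM. AA467197, Sh2d5, Timp1, Mt1, Car13, Akr1b8 and Fhl2 had only 5 to 8 counts each in the 3 uninjured libraries together, so the size of their rises is imprecise.

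The largest falls were smaller in size and came from moderate levels. Nr3c2, the mineralocorticoid receptor gene (chromosome 8, 76899442 to 77245012), was at 29.1, 27.96 and 29.5 CPM in the uninjured and 3.69, 2.91 and 7.14 CPM in the injured libraries (-2.64 ± 0.32 SE on the log2 scale, adjusted p = 1.16e-06), so the uninjured libraries lay close together and well above the injured ones. Fgf9, a fibroblast growth factor gene, fell from 37.8 ± 14.1 to 5.06 ± 1.48 CPM, Timp2, a metalloproteinase inhibitor, from 52.3 ± 1.24 to 10.9 ± 1.58 CPM, and Cdh23, a cadherin gene, from 135 ± 13.99 to 26.2 ± 6.18 CPM. Slco2b1, an organic anion transporter gene, fell from 88.96 ± 17.5 to 19.3 ± 2.36 CPM, Coro6, a coronin gene, from 83.1 ± 3.47 to 15.9 ± 1.54 CPM, Itm2a from 37.9 ± 21.2 to 4.696 ± 2.35 CPM, Sez6 from 30.5 ± 6.499 to 3.41 ± 1.62 CPM, Cpxm2 from 41.2 ± 18.4 to 4.38 ± 1.04 CPM and Spon2 from 20.6 ± 12.9 to 2.72 ± 2.205 CPM. The calls of Cpxm2 and Spon2 were lost under 5 and 4 of 14 settings. Akap5, a scaffold of protein kinase A, fell from 24.6 ± 2.71 to 5.14 ± 2.51 CPM and Pbld1 from 26.6 ± 12.7 to 5.45 ± 2.29 CPM. Tgtp2 and Iigp1 (interferon-induced GTPases) and Cxcl9 (an interferon-induced chemokine) completed the 15, and are described with the interferon genes.

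**Figure D2:**
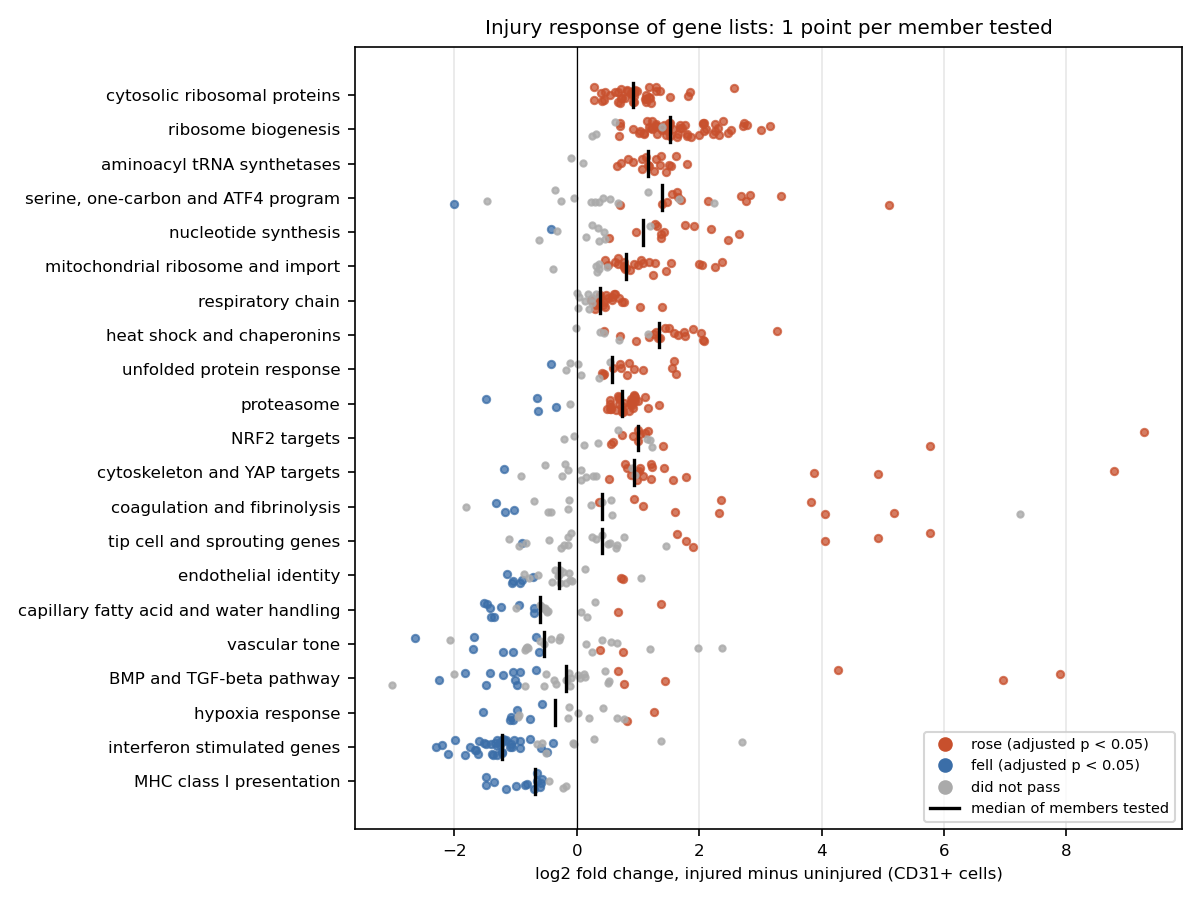
Log2 fold change (injured minus uninjured) of each tested member of 21 gene lists, with 1 point per gene. Red members rose, blue members fell and grey ones did not pass; the black bar is the median. Members of the ribosome lists lie to the right of 0 and the interferon genes that passed lie to the left.

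Genes of cell growth rose widely. Myc (chromosome 15, 61985391 to 61990374), whose product drives ribosome production, was at 14.7, 13.8 and 14.7 CPM in the uninjured and 271, 298 and 213 CPM in the injured libraries (4.17 ± 0.16 SE on the log2 scale, adjusted p = 2.37e-14). The 3 injured libraries were all more than 10 times the uninjured ones. Of the other 12 tested members of its network none rose, and Mxi1 and Mxd4, which encode antagonists of MYC, fell from 20.4 ± 3.38 to 6.72 ± 1.62 CPM and from 277 ± 15.3 to 146 ± 24.3 CPM. Mycn also fell, and that call was lost under 5 of 14 settings.

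Genes that build ribosomes in the nucleolus rose almost as a block: 56 of 60 tested rose and 0 fell, against 14.1% and 9.3% of all genes, with a median log2 fold change of 1.52. Of the 60, 52 rose over 2-fold, against 6.45% of all genes tested. In 57 every injured library lay above every uninjured one, against 19.6% of all genes tested. Nhp2, a protein of box H/ACA particles that modify ribosomal RNA, was at 41.02, 31.4 and 30.7 CPM in the uninjured and 201, 197 and 174 CPM in the injured libraries (2.47 ± 0.12 SE on the log2 scale, adjusted p = 8.1e-13). Tsr1, which matures the small subunit, was at 4.68, 5.08 and 4.42 CPM in the uninjured and 42.9, 48.9 and 35.4 CPM in the injured libraries (3.16 ± 0.22 SE on the log2 scale, adjusted p = 1.65e-10). In both genes the injured libraries were close to each other and several times above every uninjured one. Rrp9 rose from 24.6 ± 2.699 to 118 ± 14.1 CPM, the nucleolar chaperone Npm1 from 159 ± 12.9 to 451 ± 62.2 CPM, Nop56 from 73.1 ± 12.4 to 255 ± 35.6 CPM and Rrs1 from 25.5 ± 0.646 to 108 ± 18.1 CPM. Over the 14 alternatives 55 to 57 members rose, and 56 rose without injured replicate 1.

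MYC and related factors bind the E-box CACGTG, so the promoters of these genes were searched for it on both strands, in RefSeq windows on GRCm38.p6 that run from 250 bases before to 50 after the start. Of 54 members with a window, 13 (24.1%) held the motif, against 8.09% of 27025 genes in the table, 11.1% of tested genes, 15.7% of 1807 risen and 9.19% of 1088 fallen genes. All 13 rose, as did 37 of the 41 without it, and the median log2 fold changes were 2.07 and 1.52. In 10 of the 13 the motif stood 2 to 40 bases after the start. The 30-base windows of the 6 with the largest rises among these 10 are shown, with the motif in capitals. In each of the 6 it sits 23 to 40 bases after the start. Position and size of rise did not go together throughout. Utp20 held the motif 37 bases after the start and rose by 1.19, and Nop2 held it 60 bases before the start and rose by 2.07.
Tsr1 (chr11:74898092-74898121, plus strand): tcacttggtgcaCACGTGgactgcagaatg
Grwd1 (chr7:45830740-45830769, minus strand): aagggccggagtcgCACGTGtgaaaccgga
Nle1 (chr11:82908355-82908384, minus strand): tcggttctcctcCACGTGgggacgcaggat
Ltv1 (chr10:13193092-13193121, minus strand): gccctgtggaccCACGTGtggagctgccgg
Pno1 (chr11:17211540-17211569, minus strand): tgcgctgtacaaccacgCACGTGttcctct
Mybbp1a (chr11:72441347-72441376, plus strand): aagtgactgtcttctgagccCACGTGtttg
Tsr1 rose by 3.16 on the log2 scale, Grwd1 by 2.78, Nle1 by 2.52, Ltv1 by 2.25, Pno1 by 2.23 and Mybbp1a by 2.07. A match of letters is not a bound site, and binding was not measured.

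The protein parts of the ribosome rose too. All 43 tested cytosolic ribosomal protein genes rose (median 0.91), and 38 to 43 did over the alternatives. Of them 15 rose over 2-fold, against 6.45% of all genes tested. Rpsa rose from 196 ± 11.1 to 709 ± 97.7 CPM (1.86 ± 0.11 SE on the log2 scale, adjusted p = 2.63e-11), with Rpl12 (from 132 ± 12.8 to 464 ± 64.1 CPM), Rpl10a (from 59.6 ± 1.22 to 171 ± 20.6 CPM), Rpl7a (from 193 ± 13.3 to 476 ± 42.9 CPM) and Rplp0 (from 734 ± 17.4 to 1612 ± 177 CPM). Many of these genes have processed pseudogenes, which may share reads with them, so their levels are uncertain. In mitochondria 24 of 30 tested genes of the ribosome and of protein import rose and 0 fell (median 0.80). C1qbp, a chaperone-like protein of the mitochondrial matrix, rose from 50.02 ± 6.69 to 201 ± 26.5 CPM, Phb, a scaffold of the inner membrane, from 43.5 ± 3.69 to 98.4 ± 6.18 CPM, the import channel gene Tomm40 from 71.3 ± 3.85 to 169 ± 16.8 CPM, Timm10 from 14.05 ± 4.79 to 59.03 ± 10.9 CPM, Mrpl12 from 30.6 ± 5.51 to 83.8 ± 7.67 CPM and Mrps18b from 8.48 ± 3.295 to 41.1 ± 2.497 CPM. Changes in the respiratory chain were smaller, with 21 of 30 rising, 0 falling and a median of 0.38, such as Atp5b from 939.9 ± 70.1 to 1569 ± 102 CPM and cytochrome c, Cycs, from 24.4 ± 4.02 to 63.9 ± 10.4 CPM.

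Supply of amino acids and nucleotides moved the same way. Aminoacyl-tRNA synthetases, which load amino acids on their transfer RNAs, rose in 18 of 20 cases with 0 falls (median 1.17, 18 in every alternative). Gars, for glycine, was at 129, 106 and 107 CPM in the uninjured and 336, 397 and 261 CPM in the injured libraries (1.54 ± 0.13 SE on the log2 scale, adjusted p = 3.56e-09) and was higher in every injured library. Mars (methionine) rose from 46.2 ± 6.47 to 161 ± 27.3 CPM, Cars (cysteine) from 42.1 ± 6.48 to 117 ± 4.35 CPM, Nars (asparagine) from 111 ± 8.903 to 265 ± 32.4 CPM, Farsb (phenylalanine) from 57.2 ± 6.48 to 148 ± 7.57 CPM and Rars (arginine) from 62.5 ± 19.6 to 191 ± 19.8 CPM. Of the 27 tested genes of serine and one-carbon metabolism and the ATF4 program 13 rose and 1 fell (9 to 15 rose over the alternatives). Atf4, the transcription factor of the amino acid response, rose from 151 ± 19.996 to 467 ± 42.4 CPM (1.63 ± 0.12 SE on the log2 scale, adjusted p = 3.67e-10). Psat1, which makes serine, rose from 5.07 ± 3.16 to 53.9 ± 8.302 CPM, the mitochondrial serine hydroxymethyltransferase gene Shmt2 from 36.3 ± 5.74 to 119 ± 24.8 CPM, Aldh18a1, of proline synthesis, from 6.698 ± 3.12 to 49.1 ± 6.94 CPM, and Eif4ebp1, a brake on translation, from 75.7 ± 2.27 to 210.3 ± 34.2 CPM.

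The element TTGCATCA, bound by dimers of ATF and C/EBP factors, was in 4 of 12 synthetase promoters (33.3%), against 1.03% of all genes in the table and 0.793% of those tested. All 4 rose, as did 7 of the 8 without it. The windows of 3 are shown with the element in capitals.
Iars (chr13:49682126-49682155, plus strand): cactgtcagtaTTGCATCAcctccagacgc
Tars (chr15:11399655-11399684, minus strand): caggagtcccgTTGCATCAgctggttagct
Yars (chr4:129189895-129189924, plus strand): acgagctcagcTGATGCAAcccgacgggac
Yars rose by 1.29, Iars by 1.16 and Tars by 1.06 on the log2 scale, and these members were named for the element, after their values were seen.

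Amino acid, glucose and lactate transporters rose in 8 of 19 cases and fell in 0. The glutamine carrier Slc1a5 was at 51.01, 61.3 and 56.9 CPM in the uninjured and 214, 247 and 229.9 CPM in the injured libraries (2.03 ± 0.13 SE on the log2 scale, adjusted p = 3.2e-11), and Slc3a2, the heavy chain of several carriers, rose from 425 ± 42.9 to 786 ± 104 CPM. Slc7a1, of cationic amino acids, rose from 23.6 ± 9.25 to 69.97 ± 13.5 CPM, and Slc7a5, of large neutral ones, from 1.14 ± 0.743 to 6.12 ± 2.34 CPM. Nucleotide synthesis genes rose in 12 of 22 cases and fell in 1. Ctps, which makes CTP, rose from 18.7 ± 8.26 to 120.2 ± 34.2 CPM, and the purine genes Impdh2, Adsl, Atic, Pfas and Ppat rose by 1.38, 1.32, 2.47, 1.43 and 1.92 on the log2 scale. Srm, spermidine synthase, rose from 13.8 ± 7.58 to 168 ± 39.01 CPM and Azin1, which spares the polyamine enzyme ornithine decarboxylase, from 40.2 ± 22.2 to 114 ± 8.15 CPM. Odc1, that enzyme's gene, was at 15.2 ± 4.92 and 23.9 ± 6.58 CPM and did not pass (adjusted p = 0.126).

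Protein folding and turnover genes rose with them. Of 24 heat shock and chaperonin genes 19 rose and 0 fell (median 1.34), led by subunits of the cytosolic chaperonin that folds actin and tubulin: Cct8 rose from 155 ± 8.12 to 528 ± 39.9 CPM (1.77 ± 0.09 SE on the log2 scale, adjusted p = 9.95e-13), Cct3 from 171 ± 8.85 to 576 ± 72.96 CPM, Cct6a from 141 ± 5.56 to 443 ± 60.3 CPM and Cct4 from 210.2 ± 13.3 to 502 ± 28.5 CPM. Hspd1, the mitochondrial chaperonin, was at 46.98, 39.5 and 45.4 CPM in the uninjured and 206, 194 and 159.5 CPM in the injured libraries, a rise of 2.08 on the log2 scale in which the conditions were far apart. The heat shock element, searched as GAA, TTC and GAA with 2 free bases between each, was in 3 of 18 promoters of the list (16.7%), against 0.662% of all genes in the table. Hspd1 and its partner Hspe1 start head to head on chromosome 1, so both windows hold the same bases read from opposite strands, and Hspe1 rose by 2.03; the element is in capitals.
Hspd1 (chr1:55088055-55088084, minus strand): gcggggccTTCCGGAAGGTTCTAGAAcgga
Hspe1 (chr1:55088051-55088080, plus strand): acggtccgTTCTAGAACCTTCCGGAAggcc
In the endoplasmic reticulum the chaperone gene Hspa5 rose from 318 ± 31.9 to 956 ± 145 CPM, and 13 of 20 unfolded protein response genes rose and 1 fell, such as Xbp1 (from 284 ± 21.4 to 499.6 ± 7.52 CPM), Calr (from 229.8 ± 28.1 to 442 ± 56.03 CPM), Manf (from 48.2 ± 4.63 to 102 ± 24.3 CPM), Creld2 (from 70.8 ± 3.57 to 128 ± 6.74 CPM) and Sdf2l1 (from 11.6 ± 5.11 to 35.1 ± 5.81 CPM).

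The proteasome, which degrades tagged proteins, moved in both directions. Of 37 tested genes 32 rose and 4 fell, and 31 to 32 rose over the alternatives. Psmd14, a deubiquitinase of the lid, rose from 90.7 ± 4.36 to 231 ± 16.1 CPM (1.35 ± 0.11 SE on the log2 scale, adjusted p = 3.35e-09), with Psma6 (from 141 ± 10.5 to 281 ± 14.7 CPM), Psmd11 (from 122 ± 15.6 to 263 ± 14.5 CPM), Psmd2 (from 244 ± 13.8 to 449.9 ± 32.5 CPM), Psmc5 (from 168 ± 10.2 to 310.4 ± 31.1 CPM) and Psmb4 (from 121 ± 12.2 to 231 ± 35.7 CPM). The 4 that fell, named after their values were seen, were Psmb8 (-0.65), Psmb9 (-1.48), Psmb10 (-0.64) and Psme1 (-0.35 on the log2 scale, lost under 5 of 14 settings). Psmb8, Psmb9 and Psmb10 are the interferon-inducible subunits of the immunoproteasome, and Psme1 is part of its activator. Targets of NRF2, the regulator of the response to oxidants, rose in 12 of 20 cases and fell in 0. Mt2, a metallothionein, had 0 counts before injury and 12.3, 21.3 and 12.9 CPM after it, at least 58.6-fold higher. Taldo1 and G6pdx, of the pentose phosphate pathway, rose from 169 ± 21.3 to 366 ± 13.3 CPM and from 38.7 ± 2.999 to 64.8 ± 8.58 CPM, thioredoxin Txn1 from 188 ± 34.1 to 377 ± 29.6 CPM and the ferritin gene Ftl1 from 676 ± 41.8 to 1026 ± 30.8 CPM.

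**Figure D3:**
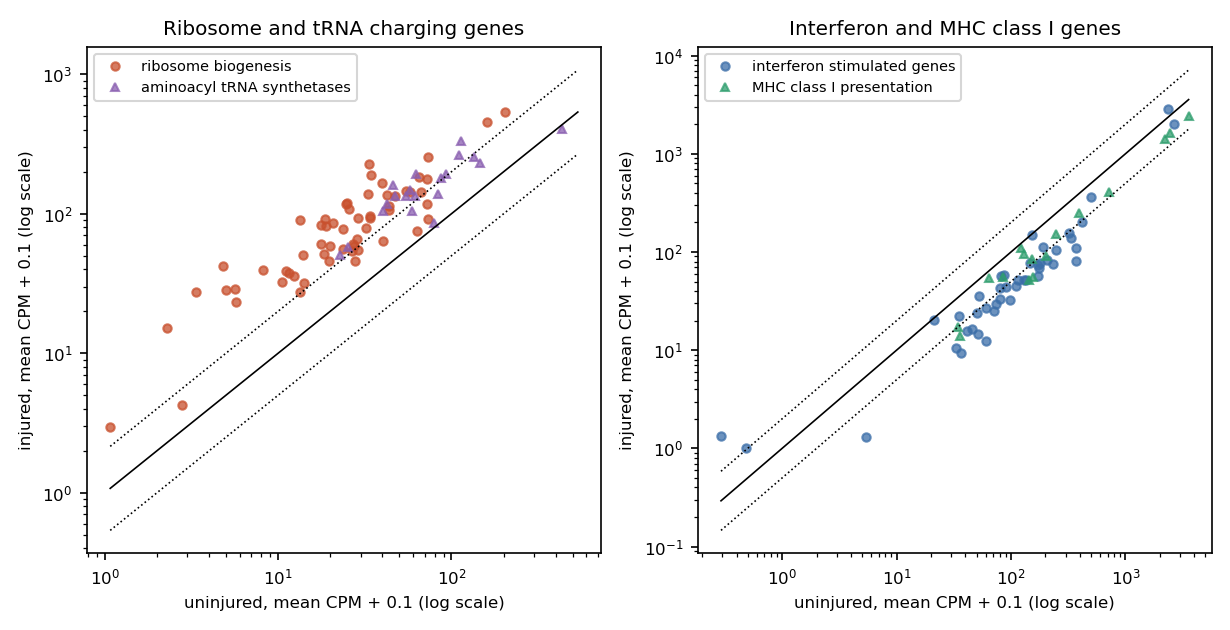
Mean level of each tested list member in uninjured (x axis) and injured (y axis) CD31+ cells, in CPM plus 0.1 on log axes, n = 3 libraries each. The solid line marks equal levels and the dotted lines 2-fold changes; ribosome biogenesis and tRNA synthetase genes lie above the line, and most interferon and MHC class I genes lie below it.

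Interferon-stimulated genes fell together. Of 44 tested members 36 fell and 0 rose, against 9.3% and 14.1% of all genes, with a median log2 fold change of -1.22. The falls numbered 31 to 39 over the alternatives, and 34 without injured replicate 1. Gbp3, a guanylate-binding GTPase of cell defence (chromosome 3, 142560026 to 142573209), was at 174, 246 and 279.7 CPM in the uninjured and 90.3, 65.01 and 68.6 CPM in the injured libraries (-1.64 ± 0.23 SE on the log2 scale, adjusted p = 9.34e-06). Irf7, a master transcription factor of the response, was at 198, 198 and 223 CPM in the uninjured and 90.1, 73.4 and 86.04 CPM in the injured libraries (-1.31 ± 0.22 SE on the log2 scale, adjusted p = 6.97e-05). Irf1 was at 395, 362 and 488 CPM in the uninjured and 184, 196 and 222 CPM in the injured libraries (-1.05 ± 0.17 SE on the log2 scale, adjusted p = 4.05e-05). In these 3 genes every injured library was below every uninjured one. Gbp7 fell from 334 ± 75.6 to 140.0 ± 6.64 CPM, Cmpk2, a mitochondrial nucleotide kinase, from 98.2 ± 8.86 to 32.7 ± 7.32 CPM, and Stat2, a subunit of the interferon-activated transcription factor, from 89.7 ± 8.79 to 44.3 ± 4.32 CPM. Among the largest falls of all genes, Iigp1 fell from 368 ± 162 to 80.2 ± 24.97 CPM, Tgtp2 from 60.9 ± 36.99 to 12.3 ± 1.92 CPM and Cxcl9 from 36.02 ± 10.6 to 7.46 ± 3.56 CPM; Tgtp2 is nearly identical to Tgtp1 and may share its reads. The call of Cxcl9 was lost under 4 of 14 settings. Cxcl10, another interferon-induced chemokine gene, was low in both conditions (2.74 ± 1.73 and 2.55 ± 2.47 CPM, adjusted p = 0.976).

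The interferon response element, searched as GAAA and GAAAC with 2 free bases between, was found in the promoters of 16 of 30 members with a window (53.3%), against 0.944% of all genes in the table, 1.08% of those tested, 3.31% of 1088 fallen and 0.498% of 1807 risen genes. Of the 16, 13 fell, as did 12 of the 14 without it, with medians of -1.12 and -1.28. Windows of 5 genes with the element are shown in capitals, some reading it as the reverse complement.
Gbp3 (chr3:142559989-142560018, plus strand): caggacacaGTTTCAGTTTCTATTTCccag
Gbp7 (chr3:142530273-142530302, plus strand): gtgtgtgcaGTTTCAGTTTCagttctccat
Stat2 (chr10:128270266-128270295, plus strand): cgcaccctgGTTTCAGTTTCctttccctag
Irgm1 (chr11:48871430-48871459, minus strand): ctgtttcaaGAAATAGAAACCGAAACtgat
Tgtp2 (chr11:49064262-49064291, minus strand): ccaggaatcGAAACCGAAACctactctgat
Both strands were searched and overlapping copies were kept, as in Gbp3. In Ifit3, which encodes an RNA-binding antiviral protein, 2 copies stand 157 and 123 bases before the start, and the 250 bases before the start are shown to place them.
Ifit3 (chr19:34583279-34583528, plus strand): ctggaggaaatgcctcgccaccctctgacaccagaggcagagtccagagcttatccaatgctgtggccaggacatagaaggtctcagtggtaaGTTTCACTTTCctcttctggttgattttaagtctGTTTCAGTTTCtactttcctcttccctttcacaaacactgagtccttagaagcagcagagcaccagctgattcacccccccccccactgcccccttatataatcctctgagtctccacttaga
Ifit3 fell by 1.62 on the log2 scale, Irgm1 by 1.16 and Stat2 by 1.02. Ifit3 has a near-identical copy, Ifit3b, with which it may share reads. These members were named for the element.

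Genes of antigen presentation by MHC class I fell as well: 13 of 16 tested fell and 0 rose (median -0.67, 9 to 13 over the alternatives). The class I gene H2-T23 was at 152, 163 and 153 CPM in the uninjured and 62.9, 52.6 and 51.6 CPM in the injured libraries (-1.48 ± 0.18 SE on the log2 scale, adjusted p = 8.91e-07). Tapbp, which loads peptides on class I molecules, fell from 719 ± 50.3 to 411 ± 57.5 CPM, Psmb9 from 145 ± 28.9 to 51.7 ± 16.4 CPM, H2-T22 from 154 ± 16.2 to 85.5 ± 22.9 CPM and the peptide transporter gene Tap1 from 202 ± 83.98 to 90.3 ± 31.8 CPM. H2-D1, a class I gene expressed at far higher levels, fell from 3565 ± 595 to 2402 ± 449 CPM.

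Genes of sprouting and of VEGF signalling moved in both directions. Of 25 tip cell and sprouting genes 6 rose and 1 fell, and 11 rose when only the 6 CD31+ libraries were fitted. Besides Pgf and Apln, Angpt2, which loosens vessels by blocking the receptor TIE2, was at 114, 62.99 and 107 CPM in the uninjured and 284, 426 and 273 CPM in the injured libraries (1.79 ± 0.38 SE on the log2 scale, adjusted p = 0.00149). Plaur, the urokinase receptor, was at 7.65, 12.99 and 5.31 CPM in the uninjured and 146, 170.4 and 113 CPM in the injured libraries (4.05 ± 0.34 SE on the log2 scale, adjusted p = 1.16e-08). Both were higher in every injured library than in any uninjured one. Spry4, a feedback inhibitor of growth factor signalling, rose from 11.4 ± 2.28 to 35.6 ± 4.96 CPM, and the adhesion molecule gene Mcam from 52.1 ± 14.4 to 196 ± 44.3 CPM.

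The receptors of these ligands fell or did not pass. Of 10 tested VEGF ligands and receptors only Pgf rose, and 3 fell. Next to Kdr these were the co-receptor Nrp1 (from 1626 ± 181 to 875 ± 38.8 CPM) and the ligand Vegfc, of lymphatic growth (from 148 ± 28.2 to 54.6 ± 9.42 CPM). Flt1, which binds both PGF and VEGF-A, was at 1363 ± 438 and 1067 ± 55.7 CPM and did not pass (adjusted p = 0.5004), and neither did Flt4 (174 ± 31.6 and 169 ± 23.4 CPM) or Nrp2 (207 ± 19.5 and 189 ± 10.6 CPM). Vegfa was nearly absent in CD31+ cells, at 0.334 ± 0.0791 and 0.159 ± 0.275 CPM. Aplnr, the apelin receptor gene, fell from 759 ± 113 to 406 ± 62.8 CPM while its ligand's gene rose. In the angiopoietin system Tie1 (from 1117 ± 155 to 653 ± 35.7 CPM, adjusted p = 0.0641) and Tek (from 302 ± 38.1 to 167 ± 20.3 CPM, adjusted p = 0.0707) had lower means after injury without passing, and the call of Ptprb, which encodes a phosphatase of TIE2 (from 1629 ± 187 to 854 ± 31.4 CPM), was lost under 8 of 14 settings. Notch genes showed 0 rises and 3 falls among 20 (1 to 4 falls over the alternatives), a share of falls near the 9.3% of all genes. Notch3 fell from 52.5 ± 8.98 to 28.1 ± 2.25 CPM, while Notch1 was at 405 ± 79.6 and 532 ± 74.97 CPM and did not pass.

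BMP and TGF-β genes gave 6 rises and 10 falls among 35 (4 to 10 falls over the alternatives). Against the rises of Bmp2, Gdf15 and Inhbb, the ligand gene Bmp6 was at 126, 76.8 and 141 CPM in the uninjured and 30.3, 52.4 and 46.2 CPM in the injured libraries (-1.42 ± 0.28 SE on the log2 scale, adjusted p = 0.000515). Tgfb2 fell from 37.7 ± 7.76 to 13.5 ± 4.45 CPM and Ltbp1, which tethers latent TGF-β, from 20.1 ± 1.98 to 5.66 ± 2.05 CPM. For each of these 3 every injured library lay below the uninjured ones. Other ligands also moved singly. Hbegf, of the EGF family, rose from 17.8 ± 4.44 to 268 ± 78.9 CPM, Pdgfa, which attracts perivascular and stromal cells, from 19.2 ± 3.58 to 94.7 ± 13.4 CPM, and Tnfrsf12a, the receptor of TWEAK, from 11.3 ± 5.48 to 149 ± 8.43 CPM. Igf1r, the insulin-like growth factor receptor gene, fell from 75.05 ± 9.99 to 38.1 ± 7.04 CPM, and Lrp5, a Wnt co-receptor, from 127 ± 21.7 to 51.01 ± 10.3 CPM.

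Coagulation and fibrinolysis genes gave 9 rises and 3 falls among 23 (6 to 10 rises over the alternatives). Several were of the plasminogen system, which dissolves clots. Plau, urokinase (chromosome 14, 20836660 to 20843385), was at 24.7, 42.4 and 30.9 CPM in the uninjured and 162, 191 and 137 CPM in the injured libraries (2.33 ± 0.25 SE on the log2 scale, adjusted p = 5.5e-07). The protease gene and Plaur, the gene of its receptor, were thus each higher in all 3 injured libraries than in any uninjured one. Anxa2, a cell surface binder of plasminogen, rose from 1926 ± 196 to 3677 ± 352 CPM and Thbs1, thrombospondin 1, from 15.2 ± 9.33 to 77.7 ± 19.5 CPM. Vwf, von Willebrand factor, which tethers platelets, fell from 486 ± 38.95 to 195 ± 50.6 CPM. The AP-1 element TGANTCA was in 8 of 15 promoters of this list (53.3%), against 8.97% of all genes in the table and 6.74% of those tested. Of these 8, 4 rose and 0 fell, and of the 7 without it 1 rose and 1 fell. The windows of Plaur and Anxa2 are shown with the element in capitals.
Plaur (chr7:24462403-24462432, plus strand): acccctggagcTGACTCActctttagcaaa
Anxa2 (chr9:69453577-69453606, plus strand): tccaagttggaTGAGTCAcccagcagggtg
Over all risen genes the same element was in 6.14% of promoters, close to its share in all tested genes.

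Among extracellular proteases and inhibitors 8 rose and 6 fell of 24 (3 to 8 falls over the alternatives). Mmp14, the membrane-bound collagenase activator, was at 13.2, 22.6 and 22.4 CPM in the uninjured and 146, 142 and 117 CPM in the injured libraries (2.81 ± 0.3 SE on the log2 scale, adjusted p = 4.63e-07) and was higher in every injured library. Adamts1 rose from 96.8 ± 27.9 to 273 ± 68.99 CPM, and of the inhibitors Timp1 rose and Timp2 fell, as given above. Integrins, the matrix receptors, moved in both directions. Itgb3 rose from 4.76 ± 3.13 to 34.9 ± 9.67 CPM, Itga3 from 23.2 ± 2.25 to 84.5 ± 25.6 CPM, Itga5, the fibronectin receptor subunit, from 129 ± 10.6 to 246 ± 46.6 CPM and Itgav from 7.31 ± 3.48 to 16.8 ± 5.14 CPM, while Itgb5 fell from 53.9 ± 8.26 to 17.04 ± 2.16 CPM and Itga1, a collagen receptor subunit, from 291 ± 10.99 to 141 ± 5.08 CPM. In all, 5 of 14 rose and 3 fell. In the basement membrane Col18a1 rose from 33.6 ± 9.58 to 118 ± 19.3 CPM, agrin, Agrn, fell from 162 ± 21.6 to 68.3 ± 5.88 CPM and Sparcl1, a matricellular protein of quiescent vessels, from 3547 ± 156 to 856 ± 171 CPM. The collagen gene Col4a1 (from 1000.4 ± 20.4 to 1464 ± 87.03 CPM, adjusted p = 0.0861) did not pass.

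Cytoskeletal genes and targets of YAP rose in 19 of 32 cases and fell in 1, and 19 to 21 rose over the alternatives. Tuba1c, an α-tubulin gene, was at 15.3, 11.6 and 19.2 CPM in the uninjured and 219, 286 and 172 CPM in the injured libraries (3.88 ± 0.21 SE on the log2 scale, adjusted p = 3.85e-12). Like Tubb6, it was many times higher in each injured library. The actin gene Actg1 rose from 522 ± 42.7 to 1799 ± 229 CPM, the actin regulators Pfn1 and Cfl1 from 343 ± 15.97 to 924 ± 101 CPM and from 810.5 ± 21.1 to 1606 ± 163 CPM, and the intermediate filament gene Vim from 1732 ± 327 to 4019 ± 495 CPM. Cyr61, a secreted YAP and AP-1 target, rose from 211 ± 87.6 to 1211 ± 359 CPM.

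Inflammatory signalling genes changed in part. Among AP-1 and immediate early genes 8 rose and 3 fell of 26 (6 to 11 rises and 1 to 3 falls over the alternatives). Fosl1 (FRA-1) was at 4.25, 8.76 and 3.54 CPM in the uninjured and 81.7, 126 and 80.6 CPM in the injured libraries (4.13 ± 0.43 SE on the log2 scale, adjusted p = 4.23e-07). Atf3 was at 6.38, 2.26 and 7.07 CPM in the uninjured and 54.9, 60.5 and 45.1 CPM in the injured libraries (3.33 ± 0.47 SE on the log2 scale, adjusted p = 3.16e-05). In both the injured libraries were many times the uninjured ones. Zfp36l1, which destabilises AU-rich transcripts, fell from 262 ± 43.04 to 139 ± 15.6 CPM. In the IL-6 and STAT3 group, 5 of 18 rose and 2 fell. Socs3, the feedback inhibitor, rose from 29.1 ± 4.64 to 133 ± 29.5 CPM, Il6 itself from 0.774 ± 0.7396 to 12.01 ± 2.599 CPM, Stat3 from 179 ± 20.95 to 255 ± 22.6 CPM and Bcl3 from 9.18 ± 2.84 to 27.2 ± 6.21 CPM, while the receptor genes Il6st and Lifr fell from 285 ± 12.6 to 147 ± 9.04 CPM and from 309 ± 42.6 to 119 ± 17.5 CPM. NF-κB subunits and feedback genes rose in 10 of 27 cases and fell in 2, such as Nfkb2 (from 48.3 ± 11.4 to 83.7 ± 8.25 CPM), Nfkbib (from 44.9 ± 5.19 to 88.04 ± 3.84 CPM), Tnfaip2 (from 5.35 ± 3.21 to 24.2 ± 2.89 CPM), Traf1 (from 16.1 ± 7.63 to 50.6 ± 13.7 CPM) and Tnip1 (from 34.7 ± 4.26 to 60.9 ± 10.4 CPM).

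Chemokines and adhesion molecules that recruit leukocytes were mixed. Besides Ccl2, the neutrophil chemokine Cxcl2 had 2 counts before injury and 21.5, 13.6 and 6.51 CPM after it (ratio 81.4, interval 22.3 to 675), and Cxcl1 was at 2.98, 2.82 and 4.72 CPM in the uninjured and 12.8, 19.99 and 11.7 CPM in the injured libraries (adjusted p = 0.0212, lost under 4 of 14 settings). These 2 genes are similar in sequence and their reads may be shared. Cxcl12, a constitutive chemokine of vessels, was at 5512, 4377 and 4704 CPM in the uninjured and 5014, 4714 and 4946 CPM in the injured libraries, with overlapping groups (adjusted p = 1.00000). Of 14 tested adhesion genes 1 rose and 2 fell (1 to 4 rises and 1 to 5 falls over the alternatives). Of all genes tested 14.1% rose and 9.3% fell. Pvr (CD155), a ligand at junctions, rose from 32.1 ± 2.15 to 110.1 ± 20.3 CPM, and the junctional molecule genes Jam2 and Jam3 fell from 756 ± 71.8 to 393 ± 48.1 CPM and from 91.2 ± 4.28 to 60.9 ± 8.77 CPM (the call of Jam3 was lost under 6 of 14 settings). Icam1, which binds leukocyte integrins, was at 87.4, 98.01 and 77.2 CPM in the uninjured and 152, 177 and 124 CPM in the injured libraries and the E-selectin gene Sele at 4.04, 1.13 and 1.77 CPM in the uninjured and 5.54, 8.34 and 8.41 CPM in the injured libraries. Neither passed (adjusted p = 0.0762 and 0.146), although no injured library of either overlapped the uninjured ones. Junction and permeability genes gave 0 rises and 4 falls among 22 (3 to 8 falls over the alternatives), with Tjp1, the tight junction scaffold ZO-1, falling from 197 ± 18.3 to 79.6 ± 3.22 CPM, Ctnnb1 from 513 ± 33.9 to 337 ± 17.01 CPM and the caveolar genes Cavin1 and Cavin2 from 3373 ± 374 to 2005 ± 176 CPM and from 2041 ± 75.8 to 1018 ± 82.8 CPM.

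Several genes of the resting capillary fell. Of 22 genes for fatty acid and water handling 9 fell and 2 rose (6 to 15 fell over the alternatives; median -0.60). Cd300lg, a receptor of capillary endothelium, was at 1492, 1322 and 2045 CPM in the uninjured and 628, 648 and 788 CPM in the injured libraries (-1.24 ± 0.23 SE on the log2 scale, adjusted p = 0.000393). Rgcc was at 863, 756 and 1181 CPM in the uninjured and 323, 342 and 429 CPM in the injured libraries (-1.36 ± 0.28 SE on the log2 scale, adjusted p = 0.00102). Both stood below every uninjured library after injury. Aqp7, a channel for glycerol and water, fell from 1133 ± 90.2 to 426 ± 82.6 CPM, Acsl1, which activates fatty acids, from 23.5 ± 0.514 to 8.81 ± 2.66 CPM, and the lipase gene Pnpla2 from 247 ± 37.1 to 151 ± 9.17 CPM. Vascular tone genes gave 7 falls and 2 rises among 27 (4 to 8 falls). Ptger4, a prostaglandin receptor gene, fell from 47.8 ± 7.36 to 14.8 ± 4.35 CPM, Ptgs1 from 149.8 ± 25.3 to 72.9 ± 18.7 CPM and the glucocorticoid receptor gene Nr3c1 from 119.5 ± 21.6 to 75.3 ± 8.92 CPM. Edn1, endothelin 1, was at 179, 115 and 113 CPM in the uninjured and 300.4, 331 and 307 CPM in the injured libraries without passing (adjusted p = 0.0576). The shear-responsive factors Klf2 and Klf4 rose from 23.2 ± 9.29 to 58.2 ± 5.94 CPM and from 70.1 ± 1.54 to 116 ± 12.8 CPM, Klf6 from 612 ± 36.7 to 1026 ± 129 CPM and Mapk7, the kinase upstream of Klf2, from 49.3 ± 1.67 to 75.6 ± 14.04 CPM, while Klf13 fell from 638 ± 79.99 to 340.3 ± 39.4 CPM.

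Some DNA replication genes rose, and no mitosis gene did. Of 28 DNA replication genes 12 rose and 0 fell (10 to 16 over the alternatives). The helicase subunit gene Mcm5 was at 21.9, 25.1 and 17.7 CPM in the uninjured and 79.8, 65.2 and 56.4 CPM in the injured libraries (1.64 ± 0.26 SE on the log2 scale, adjusted p = 5.12e-05). Mcm3 rose from 50.6 ± 6.89 to 119 ± 10.9 CPM, Pcna from 28.6 ± 2.73 to 56.2 ± 1.85 CPM, Rfc4 from 7.23 ± 2.53 to 21.5 ± 3.17 CPM, the licensing factor gene Cdt1 from 4.96 ± 2.63 to 20.1 ± 8.01 CPM and Uhrf1 from 1.89 ± 1.13 to 15.8 ± 3.43 CPM. Of 27 mitosis genes 0 rose and 1 fell, Prc1, a call lost under 7 of the 12 settings that gave it a value. Mki67, a marker of dividing cells, was at 4.25, 8.76 and 0.589 CPM in the uninjured and 2.92, 0.388 and 0.317 CPM in the injured libraries, and Ccna2, cyclin A2, at 3.61, 7.91 and 0.884 CPM in the uninjured and 1.08, 0.388 and 0.476 CPM in the injured libraries. Both were low and overlapping, and neither passed (adjusted p = 0.336 and 0.295). Among G1 regulators 3 rose and 6 fell of 20 (3 to 5 rises and 3 to 6 falls over the alternatives). Cdk4 rose from 155 ± 7.94 to 288 ± 16.98 CPM and cyclin D1, Ccnd1, from 57.02 ± 13.6 to 108 ± 19.8 CPM, but so did the inhibitor gene Cdkn1a (p21), which was at 177, 70.05 and 95.2 CPM in the uninjured and 549.8, 803 and 642 CPM in the injured libraries (2.53 ± 0.32 SE on the log2 scale, adjusted p = 7.29e-06). The inhibitor genes Cdkn1b, Cdkn1c and Cdkn2c fell from 39.6 ± 1.87 to 21.7 ± 4.898 CPM, from 73.5 ± 29.7 to 24.4 ± 9.86 CPM and from 12.02 ± 1.83 to 3.59 ± 1.73 CPM.

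Targets of p53 rose in 10 of 20 cases and fell in 4. Trp53 itself rose from 150.3 ± 26.5 to 314 ± 35.7 CPM, Bax, which permeabilises mitochondria, from 85.03 ± 10.8 to 212 ± 20.5 CPM, and the nuclease gene Aen from 19.9 ± 3.19998 to 96.7 ± 8.08 CPM, while Sesn1 fell from 87.1 ± 14.2 to 25.9 ± 4.78 CPM. The survival gene Bcl2l1 rose too, from 288 ± 84.96 to 693 ± 15.9 CPM. Glycolysis genes rose in 11 of 16 cases and fell in 2. Pkm was at 346, 335 and 305 CPM in the uninjured and 1148, 1115 and 863 CPM in the injured libraries (1.66 ± 0.12 SE on the log2 scale, adjusted p = 2.75e-10), and Gapdh, Pgk1, Ldha and Aldoa rose by 1.24, 1.63, 0.84 and 0.67. Hypoxia response genes gave 2 rises (1 to 4 over the alternatives) and 7 falls (5 to 7) among 18. Hif1a rose from 101 ± 8.33 to 242 ± 52.004 CPM, while its negative regulator gene Egln1 fell from 59.1 ± 6.53 to 20.5 ± 4.45 CPM, and the target genes Bnip3, Bnip3l and Kdm3a fell from 26.9 ± 3.86 to 13.7 ± 0.265 CPM, from 113 ± 16.4 to 53.5 ± 3.51 CPM and from 43.1 ± 7.82 to 20.9 ± 3.06 CPM. Pgk1, Ldha and Aldoa are known hypoxia targets as well and stand in the glycolysis list.

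Transcripts of other cells were low but not absent. In sorted bulk cells, fewer cells of a type and less RNA per cell cannot be told apart. The 15 muscle fiber genes summed to 147 to 206 CPM in uninjured and 58.5 to 110 CPM in injured libraries, and 5 of 13 tested fell (2 to 9 over the alternatives), such as Mb, myoglobin (from 6.95 ± 2.83 to 1.42 ± 0.641 CPM) and Tnnt3 (from 9.35 ± 2.74 to 2.39 ± 1.32 CPM). Pericyte and smooth muscle genes summed to 680 to 962 and 590 to 794 CPM. Mcam, which rose and is described above with the sprouting genes, is in that list. Without it, a sum taken after its values were seen, the conditions did not overlap, at 643 to 896 and 380 to 562 CPM. The pericyte gene Rgs5 fell from 191 ± 69.2 to 72.6 ± 14.9 CPM (a call lost under 8 of 14 settings), as did Notch3, which belongs to this list too. The part of pericytes in these falls was not tested. Stromal genes summed to 2965 to 3815 and 1990 to 2604 CPM, most of it Ly6c1, which capillary endothelium also makes (3351 ± 442 and 2236 ± 299.8 CPM). The stromal markers Pdgfra (2.24 ± 0.645 and 0.7696 ± 0.296 CPM) and Col1a1 (1.37 ± 2.01 and 3.98 ± 3.39 CPM) were near 0. Lymphatic genes, which mark another endothelial type, fell in 4 of 7 tested cases (1 to 6 over the alternatives). Lyve1 was at 97.4, 10.7 and 0 CPM in the uninjured and 1.08, 4.08 and 0.159 CPM in the injured libraries, high in 1 uninjured library. Others were also highest there: Reln was at 42.5, 7.91 and 1.77 CPM, Mmrn1 at 32.3, 7.91 and 0 CPM and Pdpn at 11.3, 6.21 and 0 CPM in uninjured replicates 1 to 3. Reln and Mmrn1 failed the filter on low counts. Thy1 and Fxyd6 were instead highest in uninjured replicate 2. Only the fall of Fxyd6 (from 49.4 ± 27.1 to 15.02 ± 2.31 CPM) held under all 14 settings. Platelet genes summed to 11.2 to 14.7 CPM and 29.2 to 82.7 CPM, and Ppbp rose from 1.12 ± 0.702 to 11.8 ± 7.83 CPM. Erythroid genes were uneven, from 8.76 to 442 and from 71.6 to 962 CPM, with none of 5 passing. Mast cell genes summed higher after injury (151 to 208 against 18.0 to 48.3 CPM), nearly all of it Kit (from 27.6 ± 16.5 to 175 ± 29.1 CPM), a receptor that some endothelial cells also carry; Cma1, Cpa3, Mcpt4 and Tpsb2 were each below 1 CPM on average.

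**Figure D4:**
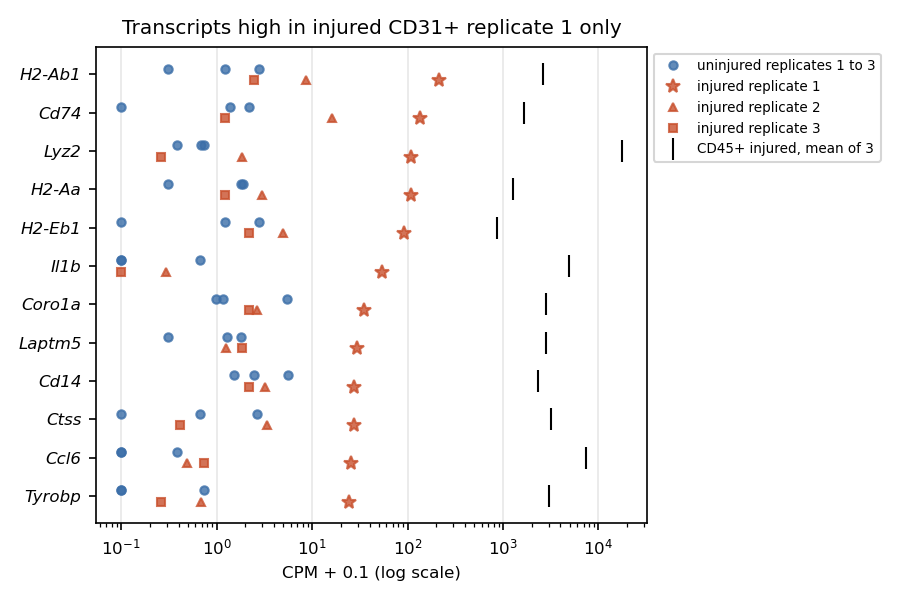
Level of the 12 highest transcripts marked in injured CD31+ replicate 1, in CPM plus 0.1 on a log axis, in each CD31+ library, with the mean of the 3 injured CD45+ libraries as a black tick. The star (injured replicate 1) lies above the other 5 CD31+ libraries and below the CD45+ mean for every gene shown.

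Leukocyte transcripts were high in injured replicate 1 alone. H2-Ab1, an MHC class II gene of antigen-presenting cells, was at 0.213, 1.13 and 2.65 CPM in the uninjured and 214, 8.54 and 2.38 CPM in the injured libraries. Cd74, the class II chaperone, was at 1.28, 0 and 2.06 CPM in the uninjured and 135, 16.1 and 1.11 CPM in the injured libraries. Lyz2, lysozyme of myeloid cells, was at 0.638, 0.282 and 0.589 CPM in the uninjured and 108, 1.75 and 0.159 CPM in the injured libraries. In all 3, injured replicate 1 was several fold above each other library. Injured replicate 2 was also above every uninjured library, most of all for Cd74, and replicate 3 was not above the highest of them. The injured levels in replicates 1, 2 and 3 were 108, 2.91 and 1.11 CPM for H2-Aa, 92.5, 4.85 and 2.06 CPM for H2-Eb1 and 54.5, 0.194 and 0 CPM for Il1b. They were 34.6, 2.52 and 2.06 CPM for Coro1a, 29.4, 1.16 and 1.75 CPM for Laptm5, 27.4, 3.105 and 2.06 CPM for Cd14 and 27.1, 3.299 and 0.317 CPM for Ctss. Those of Ccl6 and Tyrobp were 25.5, 0.388 and 0.635 and 24.2, 0.582 and 0.159 CPM. The same transcripts stood far higher in injured CD45+ cells, with H2-Ab1 at 2617 and Lyz2 at 17557 CPM on average. For the 51 marked genes at least 10 times higher there, the median level in injured replicate 1 was 1.21% of that in CD45+ cells. The rest of the 60 ranged from 10.5% (Retnlg) to 164% (Alox15) of the CD45+ level. Whether leukocytes in the sort gave these transcripts was not tested.

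Calls in the leukocyte lists depended on that library and on other settings. MHC class II genes gave 4 rises among 7 tested (0 to 5 over the alternatives). There were 2 rises without injured replicate 1, and 0 with voom or when only the 6 CD31+ libraries were fitted. Of the 7, 0 were free of overlap, against 37.3% of all genes tested. Pan-leukocyte genes gave 9 rises among 20 (1 to 14 over the alternatives). The number was 2 without injured replicate 1, and 1 without uninjured replicate 1, without uninjured replicate 3 or when only the 6 CD31+ libraries were fitted. Summed, the pan-leukocyte genes were at 525 to 646 CPM in uninjured and 787, 454 and 423 CPM in injured replicates 1, 2 and 3, against 46756 CPM in injured CD45+ cells. The largest part of each CD31+ sum was Srgn, which did not pass. It was at 565, 438 and 474 CPM in the uninjured and 367, 381 and 354 CPM in the injured libraries, so these sums mostly follow 1 gene outside injured replicate 1. Monocyte and macrophage genes summed to 126 to 156 and to 346, 131 and 103 CPM. None of 13 tested neutrophil genes passed, and their sum was 6.78 to 22.96 and 22.7 to 56.8 CPM against 10445 CPM in injured CD45+ cells. Without injured replicate 1, 1933 genes rose and 1059 fell in all, with 56 rises in the ribosome biogenesis list and 34 falls in the interferon list. Leaving out every gene at least 20 times higher in injured CD45+ cells gave 2238 rises and 1461 falls.

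**Figure D5:**
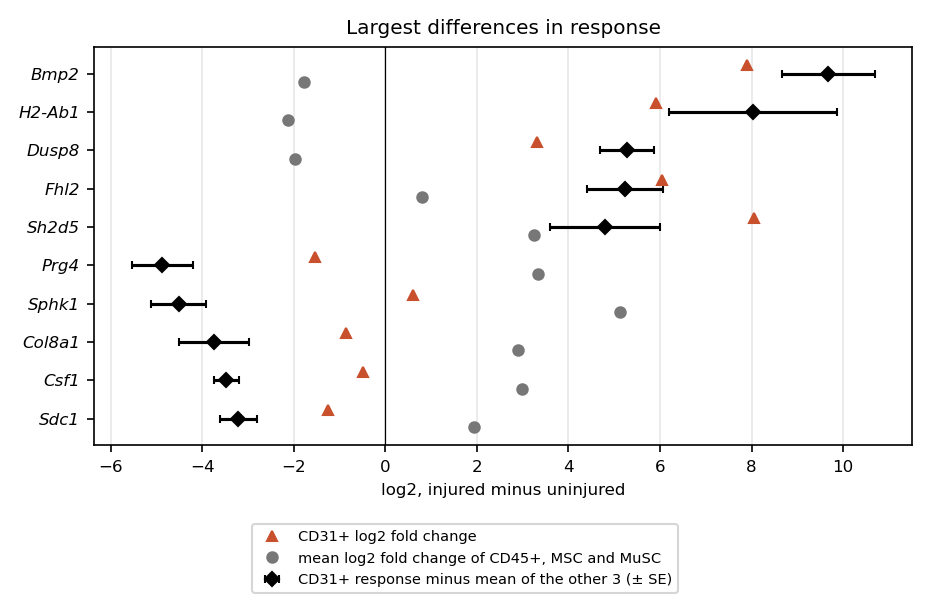
Injury response of the 10 genes ranked by the difference between CD31+ cells and the mean of the other 3 populations (at least 20 CPM in CD31+ cells and counts in every group), as log2 of injured over uninjured. Triangles are CD31+ cells, circles the mean of CD45+, MSC and MuSC, and diamonds the difference with its SE; the first 5 genes lie above 0 and the last 5 below.

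The response of CD31+ cells was set against the mean response of the other 3 populations by an interaction contrast in the same model. It was higher in CD31+ cells for 917 genes (5.64% of those tested) and lower for 592 (3.64%). Differences were ranked among genes with a mean of at least 20 CPM in either condition of CD31+ cells and with counts in every group of the series, which leaves out lower genes with larger differences. Of these Bmp2 showed the largest difference (9.68 ± 1.01 SE, adjusted p = 9.52e-07): in CD31+ cells it rose as given above, and its mean in the other populations went from 4.57 to 0.168 CPM in CD45+, from 16.4 to 8.06 CPM in MSC and from 2.64 to 3.305 CPM in MuSC. The difference of H2-Ab1 (8.04 ± 1.83 SE, adjusted p = 0.00981) was 4.22 without injured replicate 1 (adjusted p = 0.00418, 2.18e-07 to 0.114 over the alternatives). Dusp8, a phosphatase of stress kinases, rose from 4.88 ± 2.95 to 49.4 ± 14.6 CPM in CD31+ cells and differed by 5.28 ± 0.59 SE, adjusted p = 2.46e-06. Fhl2 and Sh2d5 differed by 5.24 and 4.8.

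Among the genes whose response was lower in CD31+ cells, Csf1, a growth factor of macrophages, was at 38.9, 43.2 and 41.6 CPM in the uninjured and 20.6, 43.3 and 24.8 CPM in the injured libraries, while its mean went from 186 to 432 CPM in MSC and from 6.81 to 161 CPM in MuSC (difference -3.47 ± 0.28 SE, adjusted p = 5.07e-08). Sphk1, sphingosine kinase 1, was at 22.5 ± 11.99 and 34.4 ± 10.5 CPM in CD31+ cells (difference -4.51). Col8a1, a collagen of vessel walls, was at 144 ± 8.06 and 79.3 ± 18.3 CPM (difference -3.75), the lubricin gene Prg4 fell from 48.5 ± 6.87 to 16.6 ± 2.73 CPM (difference -4.87) and the syndecan gene Sdc1 from 37.6 ± 10.2 to 15.9 ± 5.27 CPM (difference -3.21). The differences of these 5 genes passed here and in each of 12 alternatives. A difference from the mean of the other populations does not show which of them moved.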

How the data were processed

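RNA was measured in 24 libraries of 4 sorted populations, of which the 6 CD31+ libraries are described here. Each library held about 1000 twice-sorted cells, per the labels' protocols; their polyadenylated RNA was primed with oligo(dT), the cDNA amplified by PCR and fragmented with Nextera XT, and pairs of 25 bases were read. This marks no strand and carries no molecular identifiers, so reads of overlapping genes on opposite strands cannot be told apart and counting intervals cover counting error only.

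The authors deposited raw read counts for 52997 gene symbols. Alignment to mm10 used STAR 2.5.4 and counting used featureCounts, per the submitters' processing notes. Annotation, counting settings and the handling of multi-mapping reads were not given in the sources used here. Genes with near-identical copies are uncertain for that reason.

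Counts were filtered by edgeR 4.0.16 (R 4.3.3) over the 8 groups, which left 16263 genes, scaled by TMM and fitted in 1 model with a mean per group (16 residual degrees of freedom, biological coefficient of variation 0.224). EdgeR's quasi-likelihood test gave p-values for injured minus uninjured CD31+ cells, and for that difference minus the mean of the same difference in the other 3 populations, adjusted by Benjamini-Hochberg over all genes tested and called below 0.05. Each SE is approximate, the log2 fold change over the square root of F. The procedure was tested on simulated data with 15989 genes: 96% and 100% of 4-fold falls and rises and 38% and 44% of 2-fold falls and rises were called, so changes near 2-fold can be missed. Every simulated gene had the same biological coefficient of variation, and only genes not low in uninjured CD31+ cells were changed. These rates therefore do not cover low or more variable genes. A count of 0 was taken to allow up to 3 counts.

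The alternatives were RLE scaling, no filter, a stricter filter (5 CPM in 3 libraries), only the 6 CD31+ libraries, DESeq2 1.42.0, limma 3.58.1 (voom), the replicate number as a block, and leaving out each CD31+ library. Positions are from GENCODE vM21 on GRCm38 (15935 of 16263 tested genes matched by symbol) and promoters from RefSeq on GRCm38.p6 (11347 tested genes had a window). The 73 gene lists and all members were chosen with earlier results of these data known; 1307 of their 1360 genes were tested, 47 failed the filter and 6 symbols were not among those in the table. Genes were named by rule: the 20 largest rises and 15 largest falls among called genes without overlap that reached 20 CPM on average in 1 condition, up to 6 members of a list by smallest adjusted p (all of a list of 12 or fewer) and members said not to pass, the 3 markers, up to 12 transcripts high in injured replicate 1 only, and, in each direction, the 5 genes whose response differed most, leaving out unnamed gene models and genes at 0 counts in a whole group. Other names are marked in the text as chosen after their values were seen or for a motif. A few genes and 1 window that these rules name are not reported here.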

Additional observations from a re-analysis of the deposited data

Results flagged for a closer look

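Injury responses that differed between CD31+ cells and the mean of CD45+ cells, MSC and MuSC by the interaction test were looked at again. The response was higher in CD31+ cells for 917 genes and lower for 592. Among genes with at least 20 CPM in CD31+ cells and counts in every group, the largest differences in log2 response were those of Bmp2 (9.68), H2-Ab1 (8.04), Dusp8 (5.28), Fhl2 (5.24) and Sh2d5 (4.8) above 0. Below 0 they were those of Prg4 (-4.87), Sphk1 (-4.51), Col8a1 (-3.75), Csf1 (-3.47) and Sdc1 (-3.21). Over 12 alternatives the difference of Bmp2 ran from 8.63 to 11.83 and that of Fhl2, which had few counts before injury, from 4.52 to 10.08. That of H2-Ab1 was not called with limma voom (6.37, adjusted p = 0.114, 2.18e-07 to 0.114 over the alternatives). Without injured replicate 1, where H2-Ab1 was high, its difference was 4.22 (interaction test, adjusted p = 0.00418). Groups hold 3 libraries each, too few for a test of single outlying samples.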

How the results depend on the processing

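The number of genes that rose in CD31+ cells was 2298 and stayed between 1926 (RLE) and 2708 (no filter on low counts); the number that fell was 1512, but 1007 with no filter, where 43134 genes were tested, and 2420 with DESeq2. The balance of rises and falls turned with RLE (48.3% of calls rising against 60.3%) and with DESeq2 (46.4%), and was 72.9% with no filter. The number of genes with a lower response than the other populations was 592, and 1070 with DESeq2. The count of transcripts high in injured replicate 1 alone was 60 at 4 times the next library, 92 at 2 times and 46 at 8 times. Leaving out 1 CD31+ library gave 1933 to 2298 rises and 1054 to 1256 falls, and 716 to 755 higher and 419 to 540 lower responses. Genes without overlap numbered 6063 with TMM and 6247 with RLE. With the replicate number as a block 2247 rose and 1472 fell in the fit of 24 libraries and 2089 and 1560 in that of the 6 CD31+ libraries, and 858 and 582 responses were higher and lower. Deviations of same-numbered uninjured and injured libraries correlated at -0.02, -0.08 and -0.06. Those of 18 same-numbered pairs of CD31+ and other libraries of 1 condition correlated at -0.01 to 0.07 (median 0.018). For 36 pairs with different numbers the range was -0.07 to 0.04 (median -0.012), slightly lower. No pair of either kind was over 0.1, and the numbers were not taken to pair libraries. Of 262 called genes named here, 227 kept the call in all alternatives that gave a value. Of 32 named genes that did not pass, 18 gained a call in at least 1 alternative. Most such calls came from fits of only the 6 CD31+ libraries, with the block (11) or without it (10), and from voom (8). Leaving out 1 library ended the calls of Clec14a and Nos3 (injured replicate 2), Cavin1 and Ptgs1 (uninjured 1 or injured 3), Cavin2 (injured 2), Cdkn1c (uninjured 3 or injured 2), Nr3c1 (uninjured 3 or injured 1) and Sdc1 (uninjured 1 or injured 3). Other settings ended those of Aqp7 and Mcam (DESeq2), Itgav (block, 6 libraries), Prg4 (voom) and Tap1 (6 libraries, with and without the block). Leaving out 1 library moved the log2 fold change of Il1b between -0.80 and 9.55, below 0 without injured replicate 1. The medians of 3 of 73 lists (venous, shear and leukocyte adhesion genes) changed sign with RLE. Causes were not tested. A 2-fold change in genes of few counts is near the limit of this depth.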
